A study of Mus musculus with 16 samples.

Results

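The 10 fibroblast identity genes described here are Pdgfra, Dpt, Islr, Pi16, Dpp4, Sfrp2, Sfrp4, Cd34, Twist2 and Layn, found by symbol among 50600 gene identifiers measured in footpad epidermis. All 10 reached the minimum of 10 counts over the libraries, as did 22155 genes in all. Sfrp4 and Layn were picked by their diet difference in these same libraries, so their levels between diets and after papain are given as a description with no test, and the counts of genes called are made over the other 8 genes. The other 8 genes and all lists below were also chosen with earlier results of these data known. Their counts set beside the share of all genes are therefore a description, not a test of the set. The study asked how dietary ligands of the aryl hydrocarbon receptor (AhR), a transcription factor that senses small molecules from food and microbes, shape the response of skin to an allergen.

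Epidermal cells were taken from 16 female C57/B6J mice, 4 for each pairing of a diet with an injection, and each mouse gave a separate library. For 3 wk, from 5 wk of age, the mice ate a purified diet poor in AhR ligands (SYNTH in the labels, AhR-poor diet here) or that diet with 200 ppm of indole-3-carbinol, a plant compound that yields AhR ligands (I3C diet). All footpads received 50 μl of PBS, as vehicle alone or with 50 μg of papain, a plant protease used as a model allergen, and the epidermis was taken after 6 hr. No mouse carried a transgene or deletion that the labels or methods name. Epidermis was parted from dermis with dispase and dead cells were removed, with no sort for a cell type. Cages held mice of a single diet, so diet and cage cannot be told apart.

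Fibroblasts are the main cells of the dermis, the connective tissue under the epidermis, where they secrete collagen and other matrix proteins. The epidermis itself is built of keratinocytes, with Langerhans cells and T cells among them, and a basement membrane lies between it and the dermis. Pdgfra is a general surface marker of skin fibroblasts, while Pi16 and Dpp4 are known for a fibroblast population with progenitor-like features found near vessels and in fascia. The data are counts of reads per gene in a bulk tissue, so that fewer cells of a type and less RNA per cell cannot be told apart.

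Library totals ranged from 22500821 to 51844375 counts. A count of 3 was taken as the detection floor and was worth 0.0579 to 0.133 CPM (the count of a gene scaled to a common library total) before scaling, a limit that covers counting error only. Levels below are CPM scaled by trimmed mean of M-values (TMM) factors. A gene was called when its Benjamini-Hochberg adjusted p, over all 22155 genes, was below 0.01 in the quasi-likelihood test of edgeR and its log2 fold change was above 1 or below -1. The exact permutation tests were two-sided and compared 4 libraries with 4, where the smallest possible p is 0.0286.

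The keratinocyte identity of the samples was plain in every library, since the 7 basal keratinocyte markers (among them Krt5, Krt14 and Trp63) summed to between 21070 and 37270 CPM. The 10 fibroblast genes summed to between 8.58 and 142 CPM. On the I3C diet, Dpp4 alone made up 71.0% to 87.8% of that sum, and on the AhR-poor diet after papain it made up 7.18% to 14.1%. The other 9 genes summed to 1.04 to 3.97 CPM in the 8 I3C libraries, 19.7 to 36.3 CPM in the AhR-poor vehicle libraries and 56.5 to 131 CPM in the AhR-poor papain libraries. These 9 include Sfrp4 and Layn, picked by their diet difference, and leave out Dpp4, so the gap between diets follows in part from that choice. As far as the label goes, the pattern of Dpp4 across libraries differed from that of the other 9 genes, as shown further on.

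Promoter sequence was read for 9 of the 10 genes as the 250 bases before the RefSeq start of transcription on GRCm38.p6. For some genes this start differs from the GENCODE start given further on, and the last bases of the Dpt window lie past the GENCODE start of Dpt. No window was printed or searched for Sfrp4. Shown here are Dpt and Pdgfra, which moved together, and Dpp4, which did not move with them. Capitals mark matches to the E-box CANNTG, a motif bound by basic helix-loop-helix proteins such as Twist2, and to GCGTG, the core of the AhR response element.
Dpt: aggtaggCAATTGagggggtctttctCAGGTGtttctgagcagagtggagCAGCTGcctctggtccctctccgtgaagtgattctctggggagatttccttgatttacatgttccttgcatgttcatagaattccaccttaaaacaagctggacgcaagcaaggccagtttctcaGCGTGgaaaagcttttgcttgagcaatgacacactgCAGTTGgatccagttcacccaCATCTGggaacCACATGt
Pdgfra: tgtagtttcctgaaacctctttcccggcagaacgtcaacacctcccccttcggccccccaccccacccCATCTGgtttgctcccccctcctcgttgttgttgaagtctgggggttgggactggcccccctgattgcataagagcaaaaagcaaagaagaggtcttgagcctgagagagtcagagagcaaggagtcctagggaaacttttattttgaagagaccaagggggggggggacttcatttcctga
Dpp4: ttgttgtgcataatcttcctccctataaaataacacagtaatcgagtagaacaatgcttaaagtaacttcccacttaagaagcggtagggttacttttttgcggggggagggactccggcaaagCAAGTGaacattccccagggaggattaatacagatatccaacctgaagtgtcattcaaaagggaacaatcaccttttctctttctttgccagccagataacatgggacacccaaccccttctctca
The Dpt window lies on the plus strand at chr1:164796413-164796662, the Pdgfra window on the plus strand at chr5:75152001-75152250 and the Dpp4 window on the minus strand at chr2:62412232-62412481. GCGTG was searched on both strands, and CANNTG reads as CANNTG on either strand. The Dpt window held 6 E-boxes and 1 GCGTG, and no E-box in it overlapped the GCGTG. The Pdgfra and Dpp4 windows each held 1 E-box and no GCGTG. Over the 9 genes, 4 windows held an E-box (Dpt, Pdgfra, Islr and Dpp4) and 2 held GCGTG (Dpt and Sfrp2). Among 32851 promoter windows of the same length, 66.2% held an E-box and 28.2% held GCGTG. These are matches of letters and were not tested as binding sites.

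Between diets after vehicle, 5 of the 8 genes were called higher on the AhR-poor diet and 0 lower, against 1.59% of all genes called higher and 0.0% lower. The 5 were Pdgfra, Dpt, Islr, Pi16 and Cd34. The median log2 fold change of the 8 genes was 2.83, beside -0.01 for all genes. For 6 of the 8, every AhR-poor library lay above every I3C library, a pattern found in 6.45% of all genes. After papain, 6 of the 8 were called higher and 0 lower, with Twist2 added to the 5, against 7.15% of all genes called higher and 0.0993% lower. The median was then 5.77, beside 0.01 for all genes, and 7 of the 8 did not overlap between diets (12.5% of all genes). These counts rest on counts near the floor on the I3C diet, since only 2 of the 8 genes, Dpp4 and Cd34, had at least 10 counts in every library. Without T108, T109 or T111, all I3C vehicle libraries, the vehicle count was 3, as Pdgfra and Cd34 were no longer called. The 352 genes behind the 1.59% became 195, 210, 194 and 209 of all genes without T108, T109, T110 and T100, and 601 genes were called in either direction by DESeq2.

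**Figure D1:**
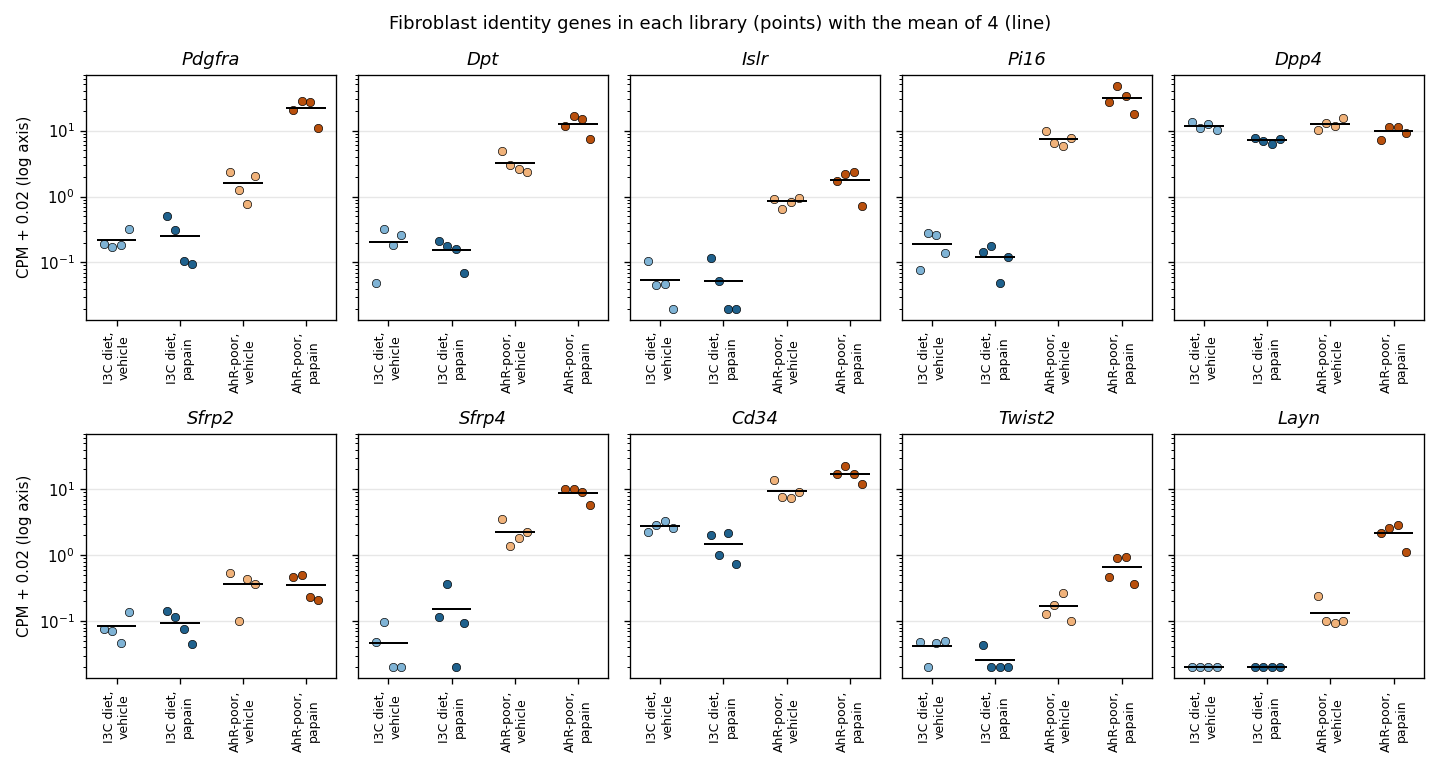
CPM of each of the 10 genes in each of 16 libraries, with 0.02 added so that libraries at 0 appear on the log axis. Points are libraries, in 4 groups of 4 by diet and injection, and lines are means. Dpp4 stays between 6.19 and 15.7 CPM in all groups, while the other genes are lowest in the I3C groups.

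Pdgfra encodes a receptor tyrosine kinase for platelet-derived growth factors (PDGF). Its levels on the I3C diet were 0.172, 0.153, 0.163 and 0.300 CPM after vehicle, from 6 to 10 counts a library, and 0.487, 0.289, 0.0856 and 0.0746 CPM after papain. On the AhR-poor diet they were 2.32, 1.24, 0.742 and 2.04 CPM after vehicle and 20.8, 27.8, 27.5 and 11.1 CPM after papain. The groups on the AhR-poor diet did not overlap with each other or with the I3C groups. After vehicle the diets differed by 3.00 on the log2 scale (standard error 0.54, edgeR adjusted p = 0.0042), and after papain by 6.51 (standard error 0.50, adjusted p = 6.18e-07), or 93.1-fold. Without T106 the papain difference was 7.23. The vehicle difference lost its call in 6 of 16 fits that each omitted a library (T100, T103, T108, T109, T110 or T111), with an adjusted p of up to 0.0233, and kept a log2 fold change of at least 2.75.

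Cd34 encodes a sialomucin on the surface of fibroblasts, endothelial cells and some hair follicle stem cells. It was measured at 2.27, 2.91, 3.32 and 2.58 CPM after vehicle and at 2.05, 0.994, 2.17 and 0.721 CPM after papain on the I3C diet. The AhR-poor libraries gave 14.0, 7.70, 7.27 and 8.96 CPM after vehicle and 17.3, 22.8, 16.9 and 12.1 CPM after papain. Of the genes called, Cd34 had the smallest diet differences, with log2 fold changes of 1.77 after vehicle (standard error 0.30, edgeR adjusted p = 0.0023) and 3.54 after papain (standard error 0.32, adjusted p = 1.58e-06). The vehicle difference was not called without T108, T109 or T111 (adjusted p of up to 0.0134).

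Dpp4 encodes dipeptidyl peptidase 4 (CD26), a surface protease found on fibroblasts and also on T cells and epithelia. Its levels on the I3C diet were 13.3, 10.9, 12.7 and 10.1 CPM after vehicle and 7.82, 7.02, 6.19 and 7.54 CPM after papain. On the AhR-poor diet they were 10.1, 12.8, 11.8 and 15.7 CPM after vehicle and 7.09, 11.3, 11.4 and 9.30 CPM after papain. The diets overlapped with either injection. After vehicle the log2 fold change between diets was 0.11, with a 95% interval of -0.22 to 0.43 (edgeR adjusted p = 0.876), and after papain it was 0.45, with an interval of 0.12 to 0.78 (adjusted p = 0.0509).

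Layn encodes layilin, a C-type lectin receptor for the matrix polysaccharide hyaluronan. It had 0 counts in all 8 I3C libraries, where 3 counts are the limit that a count of 0 allows. On the AhR-poor diet it had 8, 3, 3 and 3 counts after vehicle (0.218, 0.0794, 0.0742 and 0.0805 CPM) and 88, 134, 65 and 41 counts after papain (2.17, 2.54, 2.81 and 1.11 CPM). Set against the mean floor of the I3C group, with 3 counts in each library, AhR-poor Layn was at least 1.35-fold higher after vehicle and at least 26.2-fold higher after papain. The vehicle bound rests on T100, with 8 counts. The other AhR-poor vehicle libraries had 3 counts each, 0.0742 to 0.0805 CPM beside a mean floor of 0.0836 CPM.

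Dpt, Islr and Pi16 encode proteins that cells secrete or display toward the matrix. Dpt (dermatopontin) binds collagen and decorin, Islr (meflin) is an immunoglobulin-like protein of mesenchymal stromal cells, and Pi16 is a cysteine-rich secretory family protein. Dpt stood at 0.0287, 0.306, 0.163 and 0.240 CPM after vehicle and 0.195, 0.160, 0.143 and 0.0497 CPM after papain on the I3C diet. Its AhR-poor levels were 4.88, 2.97, 2.62 and 2.33 CPM after vehicle and 11.8, 16.4, 14.8 and 7.48 CPM after papain. The log2 fold changes of Dpt between diets were 4.07 after vehicle (standard error 0.41, edgeR adjusted p = 3.99e-05) and 6.50 after papain (standard error 0.43, adjusted p = 8.75e-08).

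Pi16 had the largest fitted diet difference of the 8 genes after either injection. On the I3C diet it was at 0.0574, 0.255, 0.245 and 0.120 CPM after vehicle and 0.122, 0.160, 0.0285 and 0.0995 CPM after papain, from 1 to 10 counts a library. On the AhR-poor diet it was at 9.89, 6.51, 5.71 and 7.67 CPM after vehicle and 27.01, 47.5, 33.0 and 17.7 CPM after papain. The mean was 44.0-fold higher on the AhR-poor diet after vehicle and 305-fold higher after papain, with log2 fold changes of 5.40 (standard error 0.40, edgeR adjusted p = 9.43e-06) and 8.22 (standard error 0.43, adjusted p = 4.21e-08).

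Islr had 3, 1, 1 and 0 counts in the I3C vehicle libraries and 4, 1, 0 and 0 after papain. Its AhR-poor levels were 0.899, 0.635, 0.816 and 0.939 CPM after vehicle and 1.70, 2.20, 2.34 and 0.707 CPM after papain. With the I3C counts this low, the vehicle difference is given as a ratio of summed counts, 23.7-fold with an exact 95% interval of 9.88 to 74.2 from counting error alone (edgeR adjusted p = 3.75e-04). After papain it was higher by 5.55 on the log2 scale (standard error 0.60, adjusted p = 3.44e-06). This value was 7.09 without T106, the I3C library with 4 counts, and the vehicle value moved from 4.44 to 5.26 without T108. Islr shares 181 exonic bases on its own strand with Islr2, whose reads could be split with it. Islr2 was called higher on the AhR-poor diet after papain (log2 fold change 3.05, adjusted p = 0.00485) and was not called after vehicle (1.29, adjusted p = 0.356).

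Sfrp2 and Sfrp4 encode secreted frizzled-related proteins, which bind Wnt ligands outside the cell. Sfrp2 had 2, 2, 1 and 4 counts in the I3C vehicle libraries and 5, 3, 2 and 1 after papain, and 19, 3, 17 and 13 counts on the AhR-poor diet after vehicle and 18, 25, 5 and 7 after papain. Its log2 fold changes between diets were 2.38 after vehicle (standard error 0.60, edgeR adjusted p = 0.0308) and 2.15 after papain (standard error 0.58, adjusted p = 0.0121), so it was not called in either. Without T101, the AhR-poor vehicle library with 3 counts, it was called after both vehicle (adjusted p = 0.00653) and papain (adjusted p = 0.00478). Without T112 it was called after papain (adjusted p = 0.00854).

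Sfrp4 had 1, 3, 0 and 0 counts in the I3C vehicle libraries and 4, 11, 0 and 3 after papain. It stood at 3.51, 1.38, 1.78 and 2.20 CPM in the AhR-poor vehicle libraries and 10.02, 10.2, 8.96 and 5.74 CPM after papain. These groups did not overlap, which the choice of this gene fixes. As a description, summed Sfrp4 counts were 79.3-fold higher on the AhR-poor diet after vehicle, with a counting interval of 30.7 to 293, and the mean CPM was 66.6-fold higher after papain. T109 held 3 of the 4 I3C counts after vehicle and T113 held 11 of the 18 after papain, and without T113 the papain value was 152-fold.

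Twist2 encodes a basic helix-loop-helix transcription factor of dermal fibroblasts and other mesenchyme. It had at most 1 count in each I3C library. On the AhR-poor diet it had 4, 6, 10 and 3 counts after vehicle (0.109, 0.159, 0.247 and 0.0805 CPM) and 18, 47, 21 and 13 counts after papain (0.443, 0.892, 0.909 and 0.354 CPM). Summed counts were 7.26-fold higher on the AhR-poor diet after vehicle, with a counting interval of 2.19 to 37.8, and this difference was not called (edgeR adjusted p = 0.0534). After papain the ratio was 95.3, with an interval of 16.7 to 3802, and the difference was called (adjusted p = 9.97e-06). The fitted log2 value moved from 6.00 to 7.59 without T106, which held the 1 I3C papain count. Of the exonic bases of Twist2, 1477 are shared with an opposite-strand gene. The strand setting of the counting is not given in the sources used here.

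Papain and vehicle were then compared within each diet. On the AhR-poor diet, 4 of the 8 genes rose after papain and 0 fell, against 6.04% of all genes called higher and 2.42% called lower. These were Pdgfra, Dpt, Pi16 and Twist2, and for each of the 4 all papain libraries lay above all vehicle libraries (17.0% of all genes, exact permutation p = 0.0286 for each). Such a separation of 4 from 4 always gives this p, which restates it. The median log2 fold change of the 8 genes was 1.52, beside -0.00 for all genes. The diet and papain comparisons share the AhR-poor vehicle and papain libraries, so they are not independent of each other.

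Pdgfra had the largest rise of the 8 genes after papain on the AhR-poor diet, where its mean was 13.8-fold higher (3.78 on the log2 scale, standard error 0.40, edgeR adjusted p = 4.39e-06). Dpt, Pi16 and Twist2 rose by less, from 3.94-fold for Dpt to 4.36-fold for Twist2. Their log2 fold changes were 1.98 for Dpt, 2.07 for Pi16 and 2.08 for Twist2, with standard errors of 0.27 to 0.45 and adjusted p-values of at most 0.00137. Islr gave 1.07 (adjusted p = 0.0413) and Cd34 gave 0.87 (adjusted p = 0.024), and neither was called. Sfrp2 gave 0.00 with a 95% interval of -0.92 to 0.93, and Dpp4 gave -0.37 with an interval of -0.70 to -0.04 (adjusted p = 0.0759). As a description of the picked genes, with no test because the AhR-poor papain libraries took part in their choice, the mean of Sfrp4 was 3.94 times and that of Layn 19.1 times the vehicle mean.

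Library T112 had the lowest CPM of the 4 AhR-poor papain libraries for 9 of the 10 genes, and T100 had the highest of the AhR-poor vehicle libraries for 7. Without T112, Islr was called (log2 fold change 1.33, edgeR adjusted p = 0.00691). Without T100, Cd34 was called (1.12, adjusted p = 0.00531). Pdgfra, Dpt, Pi16 and Twist2 kept their calls in each of the 16 fits that omitted a library.

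On the I3C diet 0 of the 8 genes were called by edgeR after papain, against 3.69% of all genes called higher and 5.29% called lower. DESeq2 also called 0, and 2 of the 8 had an unadjusted p below 0.05 in edgeR (43.3% of all genes). The 2 were Dpp4 and Cd34, and for both the papain libraries lay below all vehicle libraries (17.3% of all genes). Dpp4 had a log2 fold change of -0.71 with a 95% interval of -1.04 to -0.38 (adjusted p = 0.00137), short of the minimum change. Cd34 had -0.90 with an interval of -1.58 to -0.22 (adjusted p = 0.0384). For Pdgfra the interval ran from -1.21 to 1.75 and for Dpt from -1.70 to 0.80, widths that leave room for changes of several fold at counts this low. Sfrp4 summed to 4 counts after vehicle and 18 after papain, a ratio of 4.40 with a counting interval of 1.45 to 17.9, given with no test. Layn was at 0 in both groups and Twist2 at or under 3 counts in every library, so no fold is given.

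**Figure D2:**
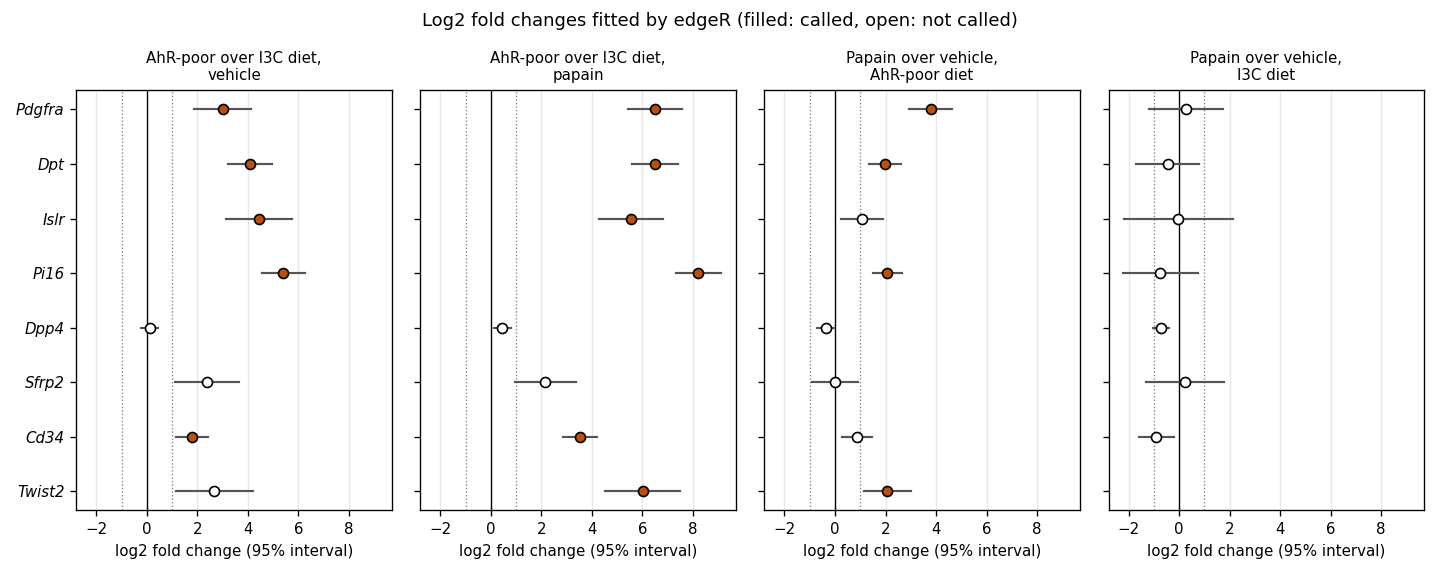
Log2 fold changes fitted by edgeR with 95% intervals for 4 comparisons. Filled points were called, open points were not, and dotted lines mark -1 and 1. Sfrp4 and Layn are left out because they were picked by their diet difference, and Twist2 is left out of papain on the I3C diet because both groups were at or under 3 counts a library. Fitted values against groups of 3 counts or fewer (Islr after vehicle, Twist2 after both) depend on the prior count. On the I3C diet 0 genes are filled, and on the AhR-poor diet Pdgfra lies farthest right after papain.

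The difference of the papain response between the diets was tested as an interaction. Of the 8 genes, 0 were called by edgeR, against 0.0181% of all genes. The 4 genes behind that share became 95 without T112, 31 without T106 and 15 without T100, and 2 to 4 without any other library, while the count of the 8 stayed at 0. Pdgfra, Dpt, Pi16, Cd34 and Twist2 had an unadjusted p below 0.05, 5 of the 8 beside 13.5% of all genes. Their interaction values on the log2 scale were 3.51 for Pdgfra (adjusted p = 0.0865), 2.43 for Dpt (0.136), 2.82 for Pi16 (0.129), 1.77 for Cd34 (0.0853) and 3.34 for Twist2 (0.312). The 95% interval for Pdgfra was 1.73 to 5.29 and that for Cd34 was 0.87 to 2.67. The Wald test of DESeq2 called 4 of the 8, Pdgfra, Dpt, Pi16 and Cd34, with adjusted p-values from 6.80e-04 to 0.0042, and it called 0.925% of all genes. A larger papain response on the AhR-poor diet was thus called for these 4 genes by DESeq2 and not by edgeR. Dpp4 gave 0.34 with an interval of -0.12 to 0.81 and Sfrp2 gave -0.23 with an interval of -2.04 to 1.57.

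Because the genes rose by unequal factors on the AhR-poor diet, each was also set against Dpt in the same library, as counts of the gene per count of Dpt. This ratio is free of library size. It was chosen after the values were seen, so it is given as a description with no test. Pi16 had a mean ratio of 2.42 ± 0.58 after vehicle and 2.45 ± 0.30 after papain (SD, n = 4), Sfrp4 of 0.702 ± 0.196 and 0.712 ± 0.119, and Twist2 of 0.0512 ± 0.0315 and 0.0502 ± 0.0101. These 3 ratios overlapped between vehicle and papain. Pdgfra moved from 0.513 ± 0.254 to 1.70 ± 0.16 and Layn from 0.0336 ± 0.0081 to 0.170 ± 0.021, or 3.32 and 5.05 times, with no overlap. Ratios of Islr (0.278 to 0.133), Cd34 (3.02 to 1.41) and Dpp4 (4.41 to 0.826) were lower after papain, again with no overlap. Sfrp2 went from 0.111 to 0.0267 with overlap. Sfrp4 and Layn were picked with these libraries, and the vehicle ratios of Layn rest on 8, 3, 3 and 3 counts. No share of all genes was computed for overlap of such ratios.

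**Figure D3:**
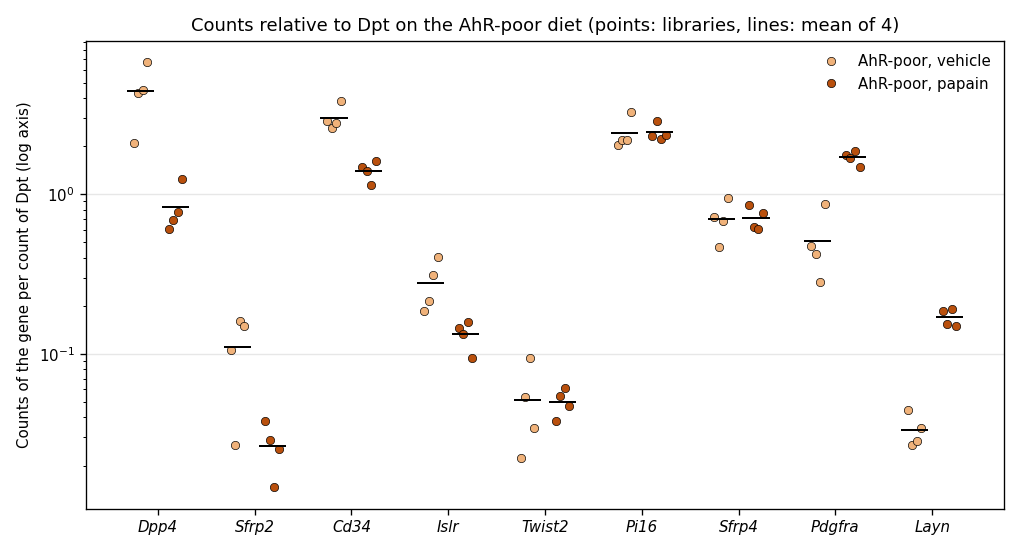
Counts of each gene per count of Dpt in the 8 AhR-poor libraries, on a log axis, ordered by the papain over vehicle ratio. Points are libraries and lines are means of 4. Twist2, Pi16 and Sfrp4 sit level, Pdgfra and Layn are higher after papain, and Dpp4, Sfrp2, Cd34 and Islr are lower, Sfrp2 with overlap. Layn and Sfrp4 were picked with these libraries, and Layn had 3 to 8 counts a library after vehicle.

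Levels can be compared between genes only per length, as TPM, a share of all transcripts in which counts are divided by the annotated exonic bases of a gene. In I3C vehicle libraries Dpp4 was first at 5.45 TPM, followed by Cd34 at 1.12 TPM, and neither overlapped with its neighbour in this order. Dpt came next at 0.316 TPM, and from there on each gene overlapped with the next. In AhR-poor vehicle libraries Dpp4 (5.99 TPM), Dpt (5.57), Cd34 (3.90) and Pi16 (3.51) each overlapped with the next, and stood apart from Sfrp4 (1.59) and Islr (0.916). After papain on the AhR-poor diet Dpt was first at 22.1 TPM, then Pi16 at 14.9, Cd34 at 7.16, Pdgfra at 6.57, Sfrp4 at 6.32 and Dpp4 at 4.64 TPM, each overlapping with the next. Dpp4 thus went from first to sixth of 10. Pdgfra, at 0.475 TPM after vehicle, moved from below Islr to above it. Layn at 2.71 TPM, Islr at 1.96, Twist2 at 0.616 and Sfrp2 at 0.467 TPM stood below.

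Across the 16 libraries, log2 CPM of the genes followed each other, with the exception of Dpp4. Its Pearson correlation with the other 9 genes ranged from 0.0536 with Layn to 0.383 with Cd34, with a median of 0.222. The median correlation of each other gene with its companions was between 0.799 for Sfrp2 and 0.944 for Dpt, and the highest pair was Dpt with Pi16 at 0.985. The points share the 4 groups and their differences, so these values describe the group pattern.

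Of 13026 genes that could be compared, with at least 1 CPM on average, the 10 whose pattern was most like the mean of the 8 genes were Col1a2 (Pearson r = 0.990 over 16 libraries), Col1a1 (0.989), Fstl1 (0.987), Apod (0.987), Myoc (0.982), Fndc1 (0.982), Pcolce2 (0.976), Adgra2 (0.975), Aspn (0.975) and Htra3 (0.974). Col1a1 and Col1a2 encode the chains of type I collagen, Pcolce2 an enhancer of procollagen processing and Aspn a small leucine-rich proteoglycan of the matrix.

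The other genes of fibroblasts were taken from written lists, made with earlier results of these data known. For these and all lists below, the shares of all genes called higher on the AhR-poor diet were 1.59% after vehicle and 7.15% after papain. Of 16 further fibroblast genes, such as Dcn and Lum, 13 were called higher on the AhR-poor diet after vehicle and 14 after papain, with median log2 fold changes of 3.80 and 6.33. Thy1 and Fbln1, also in this list, were not called between diets. Thy1 averaged 80.5 (I3C) and 69.5 CPM (AhR-poor) after vehicle, and 157 and 165 CPM after papain. Fbln1 averaged 11.3 and 13.1 CPM after vehicle, and 11.8 and 20.1 CPM after papain. Papain raised 14 of the 16 on the AhR-poor diet, beside 6.04% of all genes. On the I3C diet it raised 0 and lowered 1, beside 3.69% and 5.29% of all genes. Mfap5, a microfibril protein, averaged 0.0335 (I3C) and 1.502 CPM (AhR-poor) after vehicle, and 0.0303 and 17.2 CPM after papain. Lox, the enzyme that cross-links collagen, averaged 0.0482 and 0.670 CPM after vehicle and 0.0221 and 11.1 CPM after papain. On the I3C diet Mfap5 summed to 5 and 4 counts and Lox to 7 and 3 after vehicle and papain, near the floor. Serpinf1, a secreted serpin, averaged 0.227 and 5.14 CPM after vehicle and 0.172 and 28.5 CPM after papain. All 3 were called between diets with either injection.

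Lists named for a fibroblast subset were less uniform. Of 8 adventitial fibroblast genes 2 were called higher on the AhR-poor diet after vehicle and 2 after papain, and the medians were 0.00 and 0.01. The 2 were Col14a1 (log2 fold changes 2.90 and 5.19), a fibril-associated collagen, and Igfbp5 (3.28 and 3.90), a binding protein of insulin-like growth factors. Sema3c, the most abundant of those named, gave -0.18 and -0.37 and was not called. Of 10 genes of dermal layers 2 and 3 were called higher (medians 0.27 and 0.63), with Ntn1 (4.23 and 4.24) and Col15a1 (2.32 and 3.01) in both and Mgp (1.06) after papain. Of 8 genes of activated fibroblasts 0 were called after vehicle (median 0.24, with 2 at an unadjusted p below 0.05 and 1 called by DESeq2) and 3 after papain (median 1.61), among them Timp1 (4.75), an inhibitor of matrix metalloproteinases, and Tagln (2.71). Postn, which averaged 235 to 334 CPM in the 4 groups, gave -0.07 and 0.51 and was not called.

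Among transcription factors of mesenchyme, a list of 11 with Twist2 in it, 2 were called higher after vehicle (Prrx1 and Osr2) and 8 after papain, with medians of 1.80 and 3.07. Papain raised 8 of the 11 on the AhR-poor diet (6.04% of all genes) and 1 on the I3C diet (3.69% of all genes). Prrx1, a homeobox factor of limb and skin mesenchyme, had log2 fold changes between diets of 3.92 and 6.70 after vehicle and papain. Zeb2 had 2.69 (edgeR adjusted p = 0.0738) and 5.13 (adjusted p = 4.64e-05). Twist1, the closest relative of Twist2, had 1.80 (adjusted p = 0.0188) and 4.27 (adjusted p = 1.04e-06), and Twist1 averaged 0.219 CPM in I3C vehicle libraries, where Twist2 was near the floor.

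In the PDGF family of 7 genes, Pdgfra included, 2 were called higher on the AhR-poor diet after vehicle and 3 after papain, with medians of 2.92 and 3.86. Pdgfrb, the receptor typical of pericytes and also found on fibroblasts, was called in both (log2 fold changes 3.13 and 6.20) and rose after papain on the AhR-poor diet (2.73, edgeR adjusted p = 5.26e-06). The abundant ligands were not called between diets. Pdgfa averaged 26.6 CPM on the AhR-poor and 29.6 CPM on the I3C diet after vehicle, and Pdgfc averaged 15.1 and 19.1 CPM. The ligand gene called was Pdgfd, which averaged 0.142 CPM on the AhR-poor and 0.00609 CPM on the I3C diet after papain (adjusted p = 0.00436). These means rest on 22 and 1 counts in total, so the I3C level is under the floor.

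Of the secreted Wnt antagonists, 6 were tested between diets with Sfrp2 included and Sfrp4 left out. Of these 1, Dkk2, was called higher after vehicle and after papain (log2 fold changes 3.71 and 6.71). Dkk2 summed to 5 counts after vehicle and 2 after papain on the I3C diet, near the floor, and to 75 and 274 on the AhR-poor diet. Its fitted values therefore depend on the prior count. The medians of the 6 were 1.89 and 1.77. Sfrp1, the family member most abundant here, averaged 52.2 and 58.9 CPM on the AhR-poor and I3C diets after vehicle and 36.6 and 37.3 CPM after papain, and was not called. Dkk3 (-0.23 and 0.41) and Wif1 (1.72 and 1.85) were not called either. Among the closest relatives of the 10 genes, 2 of 12 were called higher after vehicle, Pdgfrb and the Cd34 relative Podxl (3.99), and 5 of 12 after papain (medians 1.08 and 1.54). The 5 were Pdgfrb, Twist1, Islr2, Podxl and the Dpp4 relative Fap (2.58, edgeR adjusted p = 8.83e-04). Fap encodes fibroblast activation protein. Dpp8 and Dpp9, both intracellular peptidases, gave log2 fold changes of -0.03 and -0.02 after vehicle and of -0.36 (adjusted p = 0.0341) and -0.28 (adjusted p = 0.0278) after papain, and neither was called. Crispld2, of the same protein superfamily as Pi16, was not called between diets (-0.39 and -0.16) and rose after papain on both, by 2.98 on the AhR-poor and 2.75 on the I3C diet. Crispld1, Frzb and Chodl were not called in any of these 4 comparisons, and Sfrp5 was under the count minimum.

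Of 12 genes of hyaluronan other than Layn, 1 passed as higher with the AhR-poor diet after vehicle and 3 after papain (medians 0.28 and 0.05). These were Lyve1, a receptor of lymphatic endothelium (2.96 and 4.06), and after papain also Tnfaip6 (4.47) and the synthase Has1 (2.69). Cd44, the broadly expressed hyaluronan receptor, averaged 430 to 1051 CPM in the 4 groups. Its log2 fold changes between diets were -0.18 after vehicle and -0.51 after papain.

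Markers of other cells moved with the diet as well. All 8 endothelial markers and all 5 lymphatic endothelial markers were called higher on the AhR-poor diet after either injection. The endothelial markers summed to 1.01 to 3.77 CPM in the 8 I3C libraries, 16.3 to 45.0 CPM in AhR-poor vehicle libraries and 27.4 to 67.9 CPM in AhR-poor papain libraries. The 5 red blood cell markers were all called higher after either injection, and summed to 0.258 to 17.2 CPM in I3C libraries and 73.2 to 1254 CPM in AhR-poor libraries. Of 5 mast cell markers 1 was called after vehicle and 4 after papain, and their sums were 1.27 to 3.51 CPM in I3C libraries, 2.92 to 7.11 CPM in AhR-poor libraries after vehicle and 8.05 to 22.0 CPM after papain. The I3C sums were mostly Kit, which averaged 1.64 CPM after vehicle and 2.21 CPM after papain. Cma1, Cpa3, Tpsb2 and Mcpt4 averaged at most 0.0286 CPM each in the I3C groups. Neutrophil markers summed to 20.1 to 29.5 CPM after papain in I3C libraries, where Cxcr2 averaged 24.2 CPM and each other marker at most 0.739 CPM. In AhR-poor papain libraries the neutrophil markers summed to 37.6 to 176 CPM. In contrast, 0 of 7 basal and 0 of 7 suprabasal keratinocyte markers were called by edgeR between diets, with medians of -0.23 and 0.46 after vehicle and -0.39 and 0.08 after papain. DESeq2 also called 0 of them, and at an unadjusted p below 0.05 edgeR gave 2 basal and 2 suprabasal markers after vehicle and 5 and 2 after papain. The part of these cells and of blood in the levels of the fibroblast genes was not tested.

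Papain raised 1 of the 8 endothelial and 0 of the 5 lymphatic markers on the AhR-poor diet in edgeR, beside 6.04% of all genes. The median log2 fold changes were 0.85 and 0.27 (1 lymphatic marker had an unadjusted p below 0.05, and DESeq2 called 0 lymphatic markers). The 9 genes other than Dpp4, the picked Sfrp4 and Layn included, summed to 0.874 to 2.71 times the endothelial markers in I3C libraries and to 0.808 to 1.52 times in AhR-poor vehicle libraries. In AhR-poor papain libraries this ratio was 3.93 in T107 and 1.45 to 1.93 in the other 3. These ranges overlap, and their difference was not tested.

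Of the other marker lists, macrophage markers were called higher on the AhR-poor diet in 2 of 6 after vehicle and 6 of 6 after papain. Their median log2 fold changes were 1.77 and 2.20. Melanocyte markers were called in 1 of 4 and 4 of 4 (medians 2.58 and 2.58). Skeletal muscle markers were called in 0 of 4 and 3 of 4 (medians 3.45 and 5.52), and adipocyte markers in 0 of 3 and 2 of 3 (2.21 and 3.76). Langerhans cell markers gave 0 of 5 and 1 of 5 (medians 1.43 and 1.23), and T cell markers 0 of 5 and 1 of 5 (0.74 and 1.31). Schwann cell markers gave 0 of 5 and 1 of 5 (-0.10 and 0.63), and pericyte and smooth muscle markers 0 of 7 and 3 of 7 (0.56 and 0.37). No gene of any of the 15 marker lists was called lower on the AhR-poor diet, beside 0.0% of all genes after vehicle and 0.0993% after papain.

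**Figure D4:**
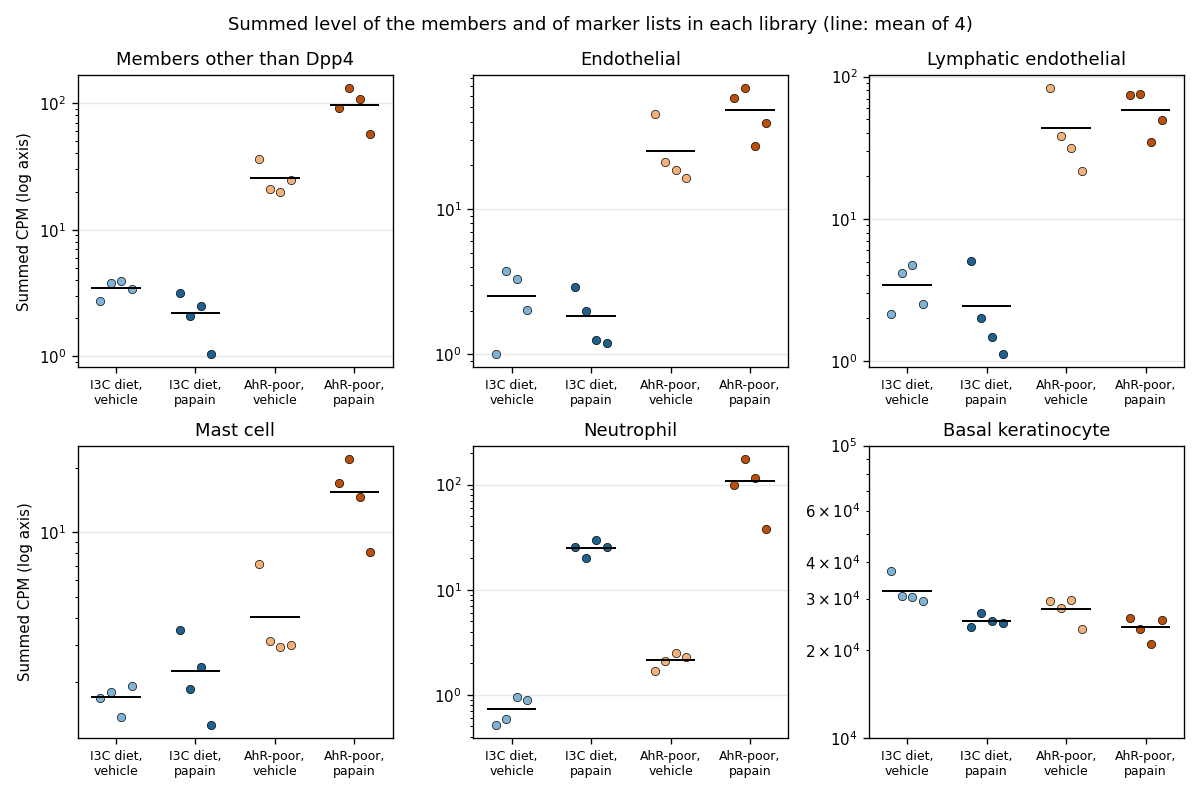
Summed CPM of the 9 fibroblast genes other than Dpp4 and of 5 marker lists in each of 16 libraries. Each panel has its own log axis, points are libraries and lines are means of 4. The fibroblast, endothelial and lymphatic sums of the diets do not overlap, AhR-poor being higher. The fibroblast sum includes Sfrp4 and Layn, picked by their diet difference, and leaves out Dpp4, so its gap follows in part from that choice. Neutrophil sums are higher after papain on both diets, on the I3C diet mostly from Cxcr2. Basal keratinocyte sums stay between 21070 and 37270 CPM.

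The genes are spread over 7 chromosomes of GRCm38. Dpt (164796644 to 164824266), Cd34 (194938819 to 194961279) and Twist2 (91801461 to 91848028) are on chromosome 1. Islr (58156268 to 58204306) and Layn (51054640 to 51077094) are on chromosome 9. Pdgfra is on chromosome 5 (75152292 to 75198215), Pi16 on 17 (29317680 to 29330593), Dpp4 on 2 (62330073 to 62412231), Sfrp2 on 3 (83766321 to 83774316) and Sfrp4 on 13 (19623104 to 19632994). Counts are summed over the exons of each gene. Dpt, Sfrp4 and Layn share no exonic base with another gene, while Pdgfra shares 622 bases with genes on the opposite strand, Sfrp2 347, Dpp4 232, Pi16 222 and Cd34 148.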

How the data were processed

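Per the labels and the methods, mRNA of epidermal cells was made into libraries with a TruSeq Stranded kit, sequenced in 3 units that the labels do not tie to libraries, and aligned by the authors with STAR to mm10. The authors deposited raw counts of reads per gene, with no normalization. The counting tool, annotation and strand setting are not given in the sources used here. Symbols and positions came from GENCODE M21 (GRCm38), which held 50376 of the 50600 identifiers.

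The 10 genes and all lists were chosen with earlier results of these data known. Counts from 16 libraries, assigned to 4 groups by their labels, were scaled with TMM in edgeR 4.0.16 (R 4.3.3). Genes with at least 10 counts were fitted with group means and the robust quasi-likelihood test, which was tested on simulated data. Standard errors were derived from the F statistic. Log2 CPM used a prior count of 2. Exact permutation tests were run in scipy. Where a group had 1 to 3 counts a library or fewer, summed counts were compared with an exact Poisson interval, and where it had 0, with a floor of 3 counts per library. The papain comparisons were planned over all 10 genes and are reported over the 8, since the 2 picked genes share those libraries. Cage and sequencing unit entered no model. Replicates differed by more than counting error (chi-square per degree of freedom at least 10.2).

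All 10 genes are named. From each written list, the 3 genes with the largest change between diets after papain and at least 1 CPM on average are named, with all of the closest relatives. Dkk2, Osr2, Pdgfd, Cd44, Thy1, Fbln1, Cxcr2 and Kit were named after their values were seen. As alternatives, scaling was by RLE factors or by library size alone. Genes were filtered by filterByExpr, by 10 counts in every library, or by 1 count in all. The Wald test of DESeq2 1.42.0 or a fit of the 8 libraries in question replaced the model. Calls were made at 0.05, or without a minimum change, and each library was left out once. For the ratios to Dpt, a ratio to Pi16 was added after seeing the data.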

Additional observations from a re-analysis of the deposited data

Results flagged for a closer look

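Each of the 10 genes was screened in each of the 4 groups for a library far from the other 3, by the gap to its nearest neighbour as a share of the group's range (Dixon's ratio). Of the 40 groups 4 were past its critical value for 4 samples, a value made for continuous data. Layn was at 0 throughout both I3C groups, which leaves no range to screen. Tied low counts push the ratio toward 1, so no rate by chance is given. Pdgfra in the I3C vehicle group had a ratio of 0.869, since library T111 was at 0.300 CPM and the next at 0.172 CPM. Twist2 had ratios of 0.906 in the I3C vehicle group, where 1 library had 0 counts and the other 3 had 1 each, and of 1.0 in the I3C papain group, where a single count in T106 was the only count. Layn in the AhR-poor vehicle group had a ratio of 0.956, with 0.218 CPM in T100 and 0.0805 CPM in the next library. T100 also had the highest endothelial sum of its group, 45.0 CPM against 16.3 to 21.1 CPM, and the highest mast cell sum, 7.11 CPM. Without T100 the vehicle counts of Layn were 3 in each of the other 3 libraries. The cause of these gaps was not tested.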

How the results depend on the processing

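A minimum of 10 counts in every library left only Dpp4 and Cd34 of the genes to test. The number called of the 8 genes then fell from 5 to 1.0 between diets after vehicle and from 6 to 1.0 after papain. For papain on the AhR-poor diet it fell from 4 to 0.0. When any fold change sufficed, 1.0 gene (Dpp4, lower) was called for papain on the I3C diet. DESeq2 called 4.0 genes in the interaction where edgeR called 0, and the cause was not tested. With 1 library left out, the number called after vehicle ranged from 3.0 (without T108, T109 or T111) to 6.0 (without T101), where the fit has fewer samples. Over the same fits it ranged from 6 to 7 between diets after papain and from 4 to 5 for papain on the AhR-poor diet. It stayed at 0 for papain on the I3C diet and in the interaction. Pdgfra after vehicle also lost its call when genes with as little as 1 count were fitted (adjusted p = 0.0104), and Sfrp2 after papain gained one with library size only (adjusted p = 0.00964). With an adjusted p of 0.05, Sfrp2 between diets and Islr for papain on the AhR-poor diet passed.

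Values that changed sign were not called in any fit. On the log2 scale, leaving out a library gave -0.025 to 0.19 for Dpp4 between diets after vehicle, -0.33 to 0.27 for Sfrp2 after papain on the AhR-poor diet (-0.0033 in a fit of only those libraries), -0.45 to 0.59 for Pdgfra, -1.58 to 0.78 for Islr and -0.14 to 0.69 for Sfrp2 after papain on the I3C diet, and -0.68 to 0.15 for Sfrp2 in the interaction. Ratios to Dpt, papain over vehicle, ranged over these fits from 0.949 to 1.15 for Pi16, 0.912 to 1.15 for Sfrp4 and 0.825 to 1.36 for Twist2. Those of Pdgfra stayed between 2.89 and 4.33 and those of Layn between 4.73 and 5.68, and set against Pi16 in place of Dpt no ratio changed its direction.

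No paired analysis was possible because no replicate code occurs in more than 1 group. Depth limits the I3C values most, where 8 of the 10 genes had fewer than 10 counts in at least 1 library.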
